A study of Homo sapiens with 6 samples.

Results

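Syndecans and glypicans are the heparan sulfate proteoglycans of the cell surface, and all 10 human genes of both families (SDC1 to SDC4 and GPC1 to GPC6) were followed here. They were found by gene symbol among the 26819 genes of the table, and each of the 10 symbols was listed. The libraries came from C4-2, a human prostate cancer line that grows without androgen and descends from LNCaP. All cells carried Tet-O-YAP5SA, a doxycycline-switched YAP1 whose LATS phosphorylation sites are mutated, so that the coactivator stays active in the nucleus. The Ctrl group (3 libraries) received no doxycycline and the Dox group (3 libraries) received it, with 24 hours as the time point, in RPMI-1640 with fetal bovine serum. The stated doxycycline dose is 0.2 mg/ml, a unit that is in doubt for an inducible line. No group had doxycycline without the transgene, so an effect of the drug and one of the induced YAP1 cannot be told apart. Whether the line is 1 clone is not stated, nor whether the replicates were grown separately. All p-values below therefore reflect only how far these libraries spread, and that spread may be technical.

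Syndecans are single-pass membrane proteins with a short cytoplasmic tail that binds PDZ proteins and links the cell surface to the cytoskeleton. Glypicans have no tail and are held in the membrane by a lipid (GPI) anchor. Both carry long, sulfated heparan sulfate chains that hold growth factors, Wnt and Hedgehog ligands and matrix proteins at the cell surface and present them to their receptors. In epithelia, SDC1 and SDC4 are the usual syndecans, and SDC4 takes part in focal adhesions.

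The values are levels in TPM, that is, read numbers per gene length, brought to an equal sum in each library, so levels of different genes can be compared. YAP1 was at 56.8 ± 3.72 TPM in Ctrl and 269 ± 6.92 TPM in Dox (SD, n = 3), in the direction of the labels. Reads recovered from the table came to between 24941872 and 29239739 per library. All 5 luminal prostate markers examined (KLK3, KRT8, KRT18, FOLH1 and HOXB13) were expressed, with a summed level of 5667 to 5742 TPM in Ctrl and 4459 to 4483 TPM in Dox. They did not move together: KLK3 (3297 and 1795 TPM in Ctrl and Dox) and HOXB13 (318 and 255 TPM) were called lower, KRT8 (473 and 582 TPM) and KRT18 (523 and 716 TPM) higher, and FOLH1 did not pass. Of 8 stromal, endothelial and immune markers, 6 were listed, and all 6 stayed under 1 TPM in every library (summed level 0.305 to 0.439 TPM in Ctrl and 0.550 to 0.721 TPM in Dox). The higher sum in Dox came mainly from CDH5 (mean 0.00658 TPM in Ctrl and 0.469 TPM in Dox). The means of DCN and CD3E were also higher in Dox, and those of PDGFRB (0.185 and 0.0731 TPM), CD14 and COL3A1 were lower. PECAM1 and PTPRC were not among the listed genes. Since these are bulk libraries, fewer cells with a transcript and less of it per cell cannot be told apart.

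The family was selected on the TPM values of these same 6 libraries, with the difference between Dox and Ctrl in view, so the differences between Dox and Ctrl below describe the members and test nothing about them as a group. Genes that reached 1 TPM in 3 or more libraries were fitted with limma on log2(TPM + 1), and a gene was called at an adjusted p under 0.05. Of the 10 members 9 passed that filter and GPC5 did not. All 4 syndecans rose. Among the 5 fitted glypicans GPC1 and GPC4 rose, GPC3 fell, and GPC2 and GPC6 did not pass. The 7 calls among 9 fitted members stand beside 53.7% of all 14833 fitted genes called. The 2 groups of libraries were fully separated for 8 of the 9, beside 61.9% of all fitted genes. By direction, 6 members were called higher (35.9% of all fitted genes) and 1 lower (17.8%). The median log2 fold change was 0.91 over the 4 syndecans and -0.05 over the 5 fitted glypicans, beside 0.10 over all fitted genes. Quantile normalization moved that last median by -0.13. Under it, and under median-ratio rescaling, 5 members were higher and 2 lower, because the rise of GPC1 no longer passed and the lower level of GPC6 did.

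**Figure D1:**
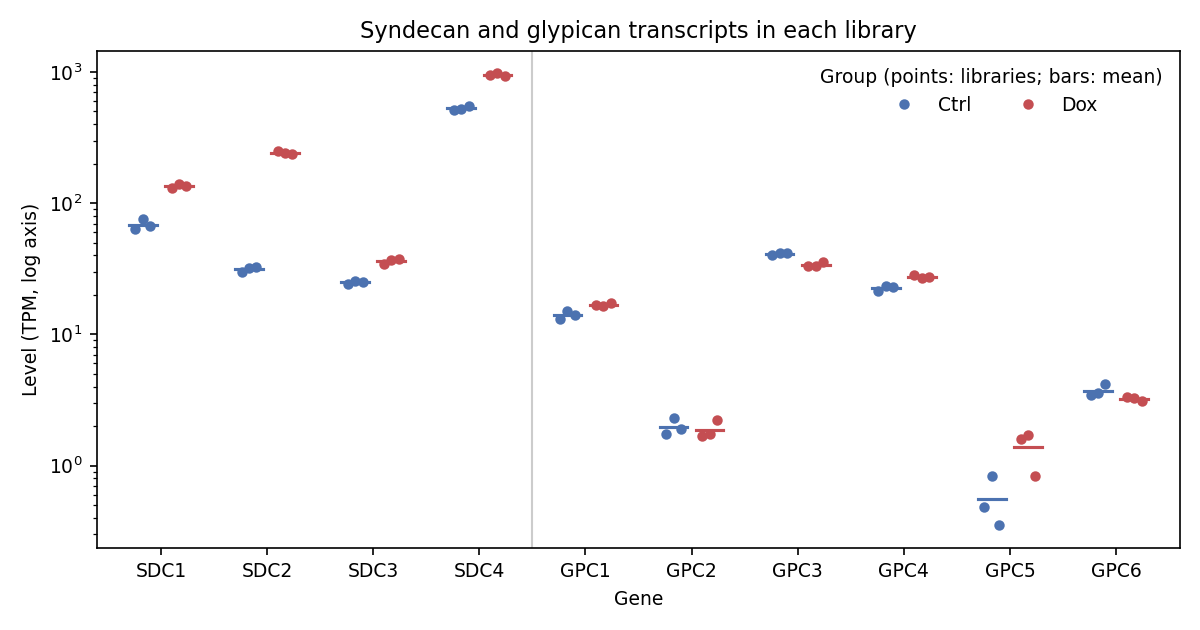
Level of each member in TPM (log axis) in the 3 Ctrl and 3 Dox libraries; points are libraries and bars are group means. The 4 syndecans sit higher in every Dox library than in any Ctrl library, SDC2 by most, while the 5 fitted glypicans stay close to their Ctrl levels, with GPC3 and GPC6 lower and GPC2 overlapping, and GPC5 is low and scattered.

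SDC4 was the most abundant member in both groups. This syndecan binds fibronectin together with integrins and recruits protein kinase C alpha to focal adhesions. Its level was 511, 526 and 548 TPM in the Ctrl libraries and 950.4, 977 and 926 TPM in the Dox libraries. All Dox libraries lay far above all Ctrl libraries, and the replicates of a group were close to each other. The ratio of mean levels was 1.80 and the log2 fold change 0.85 ± 0.04 (SE). These values rest on 11573 to 21293 reads per library. Ranked by level among the fitted genes, SDC4 stood 314th in Ctrl and 138th in Dox.

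SDC2, the syndecan best known from fibroblasts and other mesenchymal cells, changed most. It was at 29.7, 32.3 and 32.8 TPM in Ctrl and at 248, 243 and 238 TPM in Dox. No Dox library came near a Ctrl library. The mean level was 7.69-fold higher and the log2 fold change was 2.90 ± 0.05 (SE). Of all fitted genes 0.337% had a larger log2 fold change. SDC2 went from place 4604 to place 730 in the ranking of fitted genes by level, on 1205 to 9461 reads per library.

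SDC1, also known as CD138 and the main syndecan of many epithelia, was at 63.6, 75.6 and 67.1 TPM in Ctrl and at 130.2, 141 and 136 TPM in Dox. Ctrl replicate 2 was the highest of its group and still well under the lowest Dox library. The ratio of means was 1.97 and the log2 fold change 0.97 ± 0.06 (SE). SDC3, the syndecan of the nervous system, rose least of the 4. Its levels were 24.1, 25.5 and 25.2 TPM in Ctrl and 34.3, 36.8 and 37.2 TPM in Dox. The groups did not overlap, with a ratio of means of 1.45 and a log2 fold change of 0.52 ± 0.05 (SE).

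SDC1, SDC3 and SDC4 moved in the same direction, and the bases before their starts are shown for that reason. The RefSeq promoter table (GRCh38.p14) holds 8 of the 10 members; SDC2 and GPC3 have no entry in it. Each line gives the 250 bases before the annotated start, 5′ to 3′ on the gene's strand, and capitals mark GC boxes (GGGCGG on either strand). SDC4 lies on the minus strand at chr20:45348425-45348674, SDC1 (the upstream one of 2 annotated starts) on the minus strand at chr2:20225476-20225725, and SDC3 on the minus strand at chr1:30908759-30909008.
SDC4: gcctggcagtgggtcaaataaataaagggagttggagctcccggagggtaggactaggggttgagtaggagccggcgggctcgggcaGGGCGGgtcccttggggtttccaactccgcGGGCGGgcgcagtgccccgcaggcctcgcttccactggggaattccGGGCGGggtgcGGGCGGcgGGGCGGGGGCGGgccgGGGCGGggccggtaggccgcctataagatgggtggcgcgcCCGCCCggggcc
SDC1: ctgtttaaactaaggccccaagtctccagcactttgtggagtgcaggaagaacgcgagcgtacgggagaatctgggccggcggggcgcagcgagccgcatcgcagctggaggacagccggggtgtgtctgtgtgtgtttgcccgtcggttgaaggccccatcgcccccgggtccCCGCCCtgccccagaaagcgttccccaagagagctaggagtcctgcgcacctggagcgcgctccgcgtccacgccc
SDC3: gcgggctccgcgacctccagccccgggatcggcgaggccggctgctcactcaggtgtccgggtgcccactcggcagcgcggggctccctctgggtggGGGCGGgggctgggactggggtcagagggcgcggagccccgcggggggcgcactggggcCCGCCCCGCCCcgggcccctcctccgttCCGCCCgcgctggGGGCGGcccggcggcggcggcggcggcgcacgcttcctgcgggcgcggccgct
SDC4 had 8 GC box matches, none of which overlapped, SDC3 had 5 with an overlapping pair, and SDC1 had 1. GC boxes were not particular to the syndecans that rose. GPC1 had 4, GPC2 had 3, GPC4 and GPC5 had 2 each, the other start of SDC1 had 1, and GPC6 had 0. Of 35116 promoters of the same length 42.6% hold at least 1. The TEAD motif searched (GGAATG, either strand) occurs in 11.9% of promoters and the AP-1 motif searched (TGANTCA) in 6.57%. Neither was found in the windows shown, nor in those of the other 6 promoter entries of members. That says only that these letters are not in the 250 bases; more distant sites were not examined.

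Because each library is scaled to its own total, ratios between 2 members within a library do not depend on that scaling. SDC4 over SDC1 was 8.03, 6.95 and 8.18 in Ctrl and 7.30, 6.93 and 6.83 in Dox, so the groups overlapped. SDC4 over SDC2 was 17.2, 16.3 and 16.7 in Ctrl and 3.83, 4.03 and 3.90 in Dox. SDC2 was thus below SDC1 in each Ctrl library (ratios of 0.427 to 0.489) and above it in each Dox library (1.72 to 1.91). SDC4 over SDC3 was 20.6 to 21.7 in Ctrl and 24.9 to 27.7 in Dox, without overlap.

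**Figure D2:**
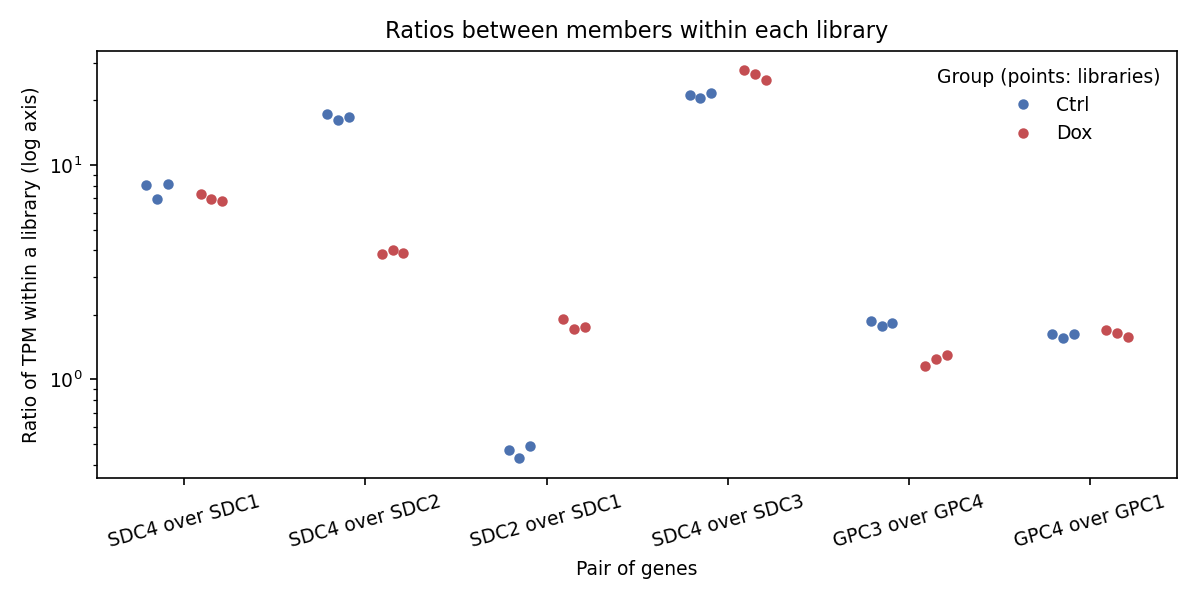
Ratio of the TPM of 2 members within each library (log axis) for 6 pairs; points are the 3 Ctrl and 3 Dox libraries. SDC4 over SDC2 drops from between 16.3 and 17.2 to between 3.83 and 4.03, whereas SDC4 over SDC1 and GPC4 over GPC1 overlap between the groups.

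Summed over the genes, glypican transcripts were far fewer than syndecan transcripts, and the log2 fold changes of the 5 fitted glypicans were smaller than that of any syndecan. GPC3, which restrains Hedgehog signalling and is mutated in Simpson-Golabi-Behmel syndrome, was the most abundant glypican and the only member called lower on the deposited scale. It was at 40.4, 41.7 and 42.0 TPM in Ctrl and at 32.9, 33.5 and 35.5 TPM in Dox. The groups did not overlap, and the mean was 1.22-fold lower (log2 fold change -0.28 ± 0.04, SE). GPC4, whose gene is the coding neighbour of GPC3 on the X chromosome in GENCODE 29 and which is known for its part in synapse formation, moved the other way. It was at 21.6, 23.4 and 22.8 TPM in Ctrl and 28.4, 27.0 and 27.2 TPM in Dox, without overlap (ratio of means 1.22, log2 fold change 0.28 ± 0.05, SE). Within libraries, GPC3 over GPC4 was 1.78 to 1.87 in Ctrl and 1.16 to 1.30 in Dox, again without overlap.

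GPC1, a co-receptor for fibroblast growth factors, was at 13.2, 15.1 and 14.0 TPM in Ctrl and at 16.8, 16.3 and 17.3 TPM in Dox. The groups were apart by little more than the spread within Ctrl, with a ratio of means of 1.19 and a log2 fold change of 0.24 ± 0.06 (SE). That call is lost after median-ratio rescaling (log2 fold change 0.14) and with quantile normalization (0.082). GPC4 over GPC1 was 1.56 to 1.64 in Ctrl and 1.57 to 1.69 in Dox and overlapped.

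The other 3 glypicans were low. GPC6, the gene mutated in a recessive form of omodysplasia, was at 3.45, 3.56 and 4.18 TPM in Ctrl and at 3.35, 3.25 and 3.11 TPM in Dox, on 162 to 230 reads per library. All Dox libraries were lower, but the log2 fold change of -0.16 ± 0.09 (SE) did not pass. It passed with median-ratio rescaling (-0.24), with quantile normalization (-0.31) and with limma voom on the recovered reads (-0.31). An exon of GPC6 overlaps an antisense gene in GENCODE 29, and whether reads were counted by strand is not stated. GPC2, a glypican of developing neurons, was at 1.75, 2.29 and 1.91 TPM in Ctrl and 1.67, 1.73 and 2.23 TPM in Dox, on 48 to 75 reads per library. Its groups overlapped, and the log2 fold change was -0.05 ± 0.12 (SE). GPC5 was at 0.480, 0.825 and 0.351 TPM in Ctrl and at 1.59, 1.72 and 0.828 TPM in Dox. It reached 1 TPM in 2 libraries only and was not fitted. Its values rest on 13, 21 and 9 reads in Ctrl and 36, 43 and 22 reads in Dox, and 3 reads correspond to 0.111 to 0.133 TPM. The groups did not overlap, but only just, since Dox replicate 3 (0.828 TPM) lay next to Ctrl replicate 2 (0.825 TPM). Without the filter on low values its log2 fold change was 0.61 ± 0.19 (SE) and did not pass.

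**Figure D3:**
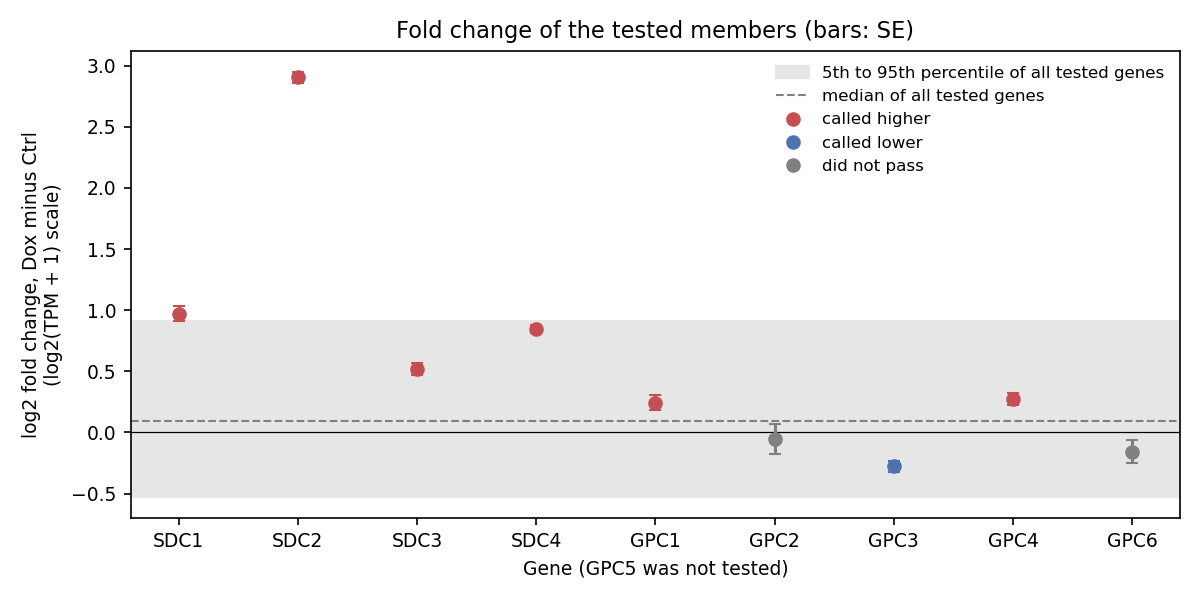
log2 fold change (Dox minus Ctrl, log2(TPM + 1) scale) of the 9 fitted members with SE, over the 5th to 95th percentile (band) and median (dashed line, 0.10) of all 14833 fitted genes. SDC2 at 2.90 and SDC1 at 0.97 lie above the band, SDC4 at 0.85 just within it, and all 5 glypicans lie well inside.

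Summed over the family, syndecan transcripts were at 628, 659 and 674 TPM in Ctrl and 1363, 1397 and 1337 TPM in Dox, a ratio of means of 2.09. Of that increase SDC4 made up 59.4%, SDC2 29.7%, SDC1 9.39% and SDC3 1.57%. The share of SDC2 in all syndecan transcripts went from 4.83 ± 0.0953% to 17.8 ± 0.425% (SD, n = 3), while that of SDC4 went from 80.8 ± 0.937% to 69.6 ± 0.313%. The share of SDC1 overlapped between groups (9.96 to 11.5% in Ctrl and 9.55 to 10.1% in Dox). Summed glypican transcripts were at 80.8, 86.9 and 85.2 TPM in Ctrl and 84.8, 83.5 and 86.2 TPM in Dox. These overlapped, with a ratio of means of 1.01 that becomes 0.933 after median-ratio rescaling. Within that sum the share of GPC3 went from 49.1 ± 1.0% to 40.0 ± 1.16% and that of GPC4 from 26.8 ± 0.156% to 32.5 ± 0.978%. Syndecans made up 88.6 ± 0.208% of the transcripts of all 10 genes in Ctrl and 94.1 ± 0.209% in Dox.

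**Figure D4:**
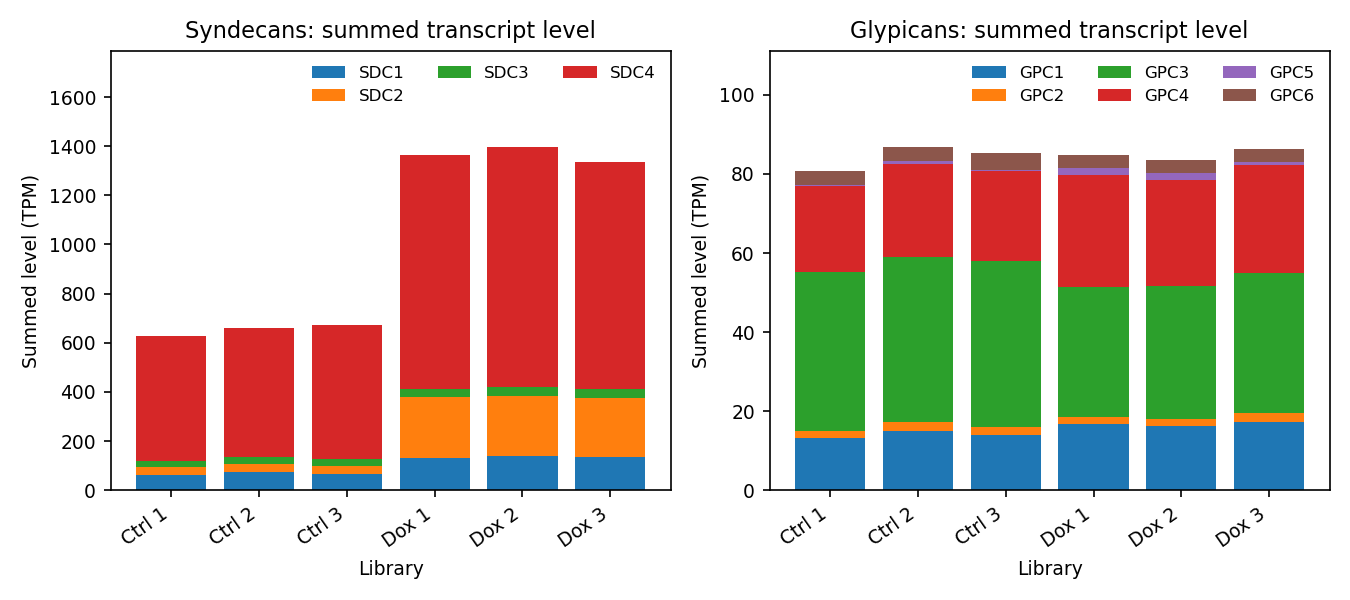
Summed TPM of the 4 syndecans (left) and the 6 glypicans (right) in each library, with each gene's part in colour; both axes start at 0 and differ in scale. The syndecan bars reach 628 to 674 TPM in Ctrl and 1337 to 1397 TPM in Dox, and the glypican bars stay between 80.8 and 86.9 TPM.

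Ordered by mean level, the members ran SDC4, SDC1, GPC3, SDC2, SDC3, GPC4, GPC1, GPC6, GPC2 and GPC5 in Ctrl, where no neighbours in the order overlapped. In Dox the order was SDC4, SDC2, SDC1, SDC3, GPC3, GPC4, GPC1, GPC6, GPC2 and GPC5. There the libraries of SDC3 and GPC3 overlapped, as did those of GPC2 and GPC5. The genes whose pattern over the 6 libraries was most like that of SDC2, by Euclidean distance between centred log2(TPM + 1) values, were PRSS22 (distance 0.112), DUSP14 (0.113) and RNF144B (0.127). Their ratios of means were 8.28, 7.72 and 8.33. For SDC1 they were CLIP1 (0.0421), IFRG15 (0.0639) and TACC1 (0.0668).

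Genes that build, sulfate, remodel or break down the chains of these proteins were examined. So were chondroitin and dermatan sulfate enzymes, other core proteins, partners of the syndecan tail, shedding genes and ligands. All of them, the pathway genes below, were taken from 11 lists by function, with 107 genes in all. Of these, 103 were listed and 69 passed the filter, of which 41 rose and 10 fell. Called genes thus made up 73.9%, beside 53.7% of all fitted genes. By list, 100% of polymerases, 91.7% of chondroitin and dermatan sulfate enzymes, and 83.3% of both sulfation genes and ligands were called. The share was 80% for donors, 71.4% for lysosomal breakdown and 66.7% for linker enzymes. Other core proteins and tail partners, at 57.1% each, were near the share of all fitted genes. Shedding genes (33.3% of 3) and extracellular editing (0% of 1) were below it. The median log2 fold change of the 69 fitted pathway genes was 0.28, beside 0.10 over all fitted genes. With median-ratio rescaling the counts were 36 and 12, beside 3964 and 3948 of all 14833 fitted genes. With quantile normalization they were 29 and 12, beside 3536 and 4348. That is 41 of 69 called, beside 7884 of 14833, a smaller contrast than on the deposited scale. The list medians were 0.18 (median-ratio) and 0.11 (quantile), beside -0.00088 and -0.036 over all fitted genes.

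**Figure D5:**
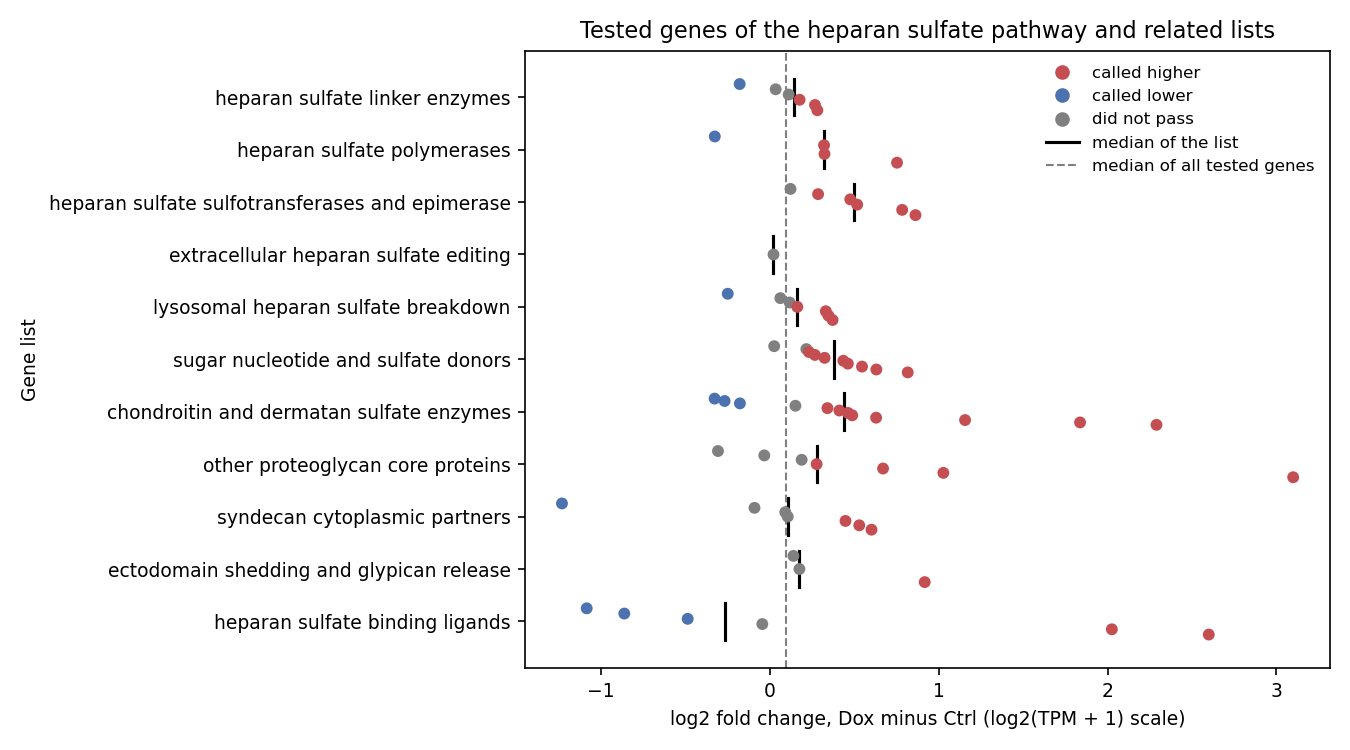
log2 fold change (Dox minus Ctrl, log2(TPM + 1) scale) of each fitted gene of the 11 lists, coloured by its call, with the list's median (black line) and the median of all fitted genes (dashed line). CHST14, CHST3, NRP1, PTN and HBEGF lie farthest to the right, and SDCBP2 and VEGFA farthest to the left. PTN passed the filter only through its Dox libraries.

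Chains start on a short sugar linker. Of 6 fitted linker enzymes 3 rose and 1 fell (1 and 1 with median-ratio rescaling, 0 and 1 with quantile normalization). The galactosyltransferase B4GALT7 rose from 13.2 ± 0.448 to 16.1 ± 0.120 TPM (SD, n = 3; limma adjusted p = 0.0029), a call lost after quantile normalization. B3GALT6 was at 8.25 ± 0.784 and 10.3 ± 1.23 TPM, a call (limma adjusted p = 0.044) that ends under either rescaling, without the filter, with a constant prior variance, with limma voom on recovered reads, and without Ctrl replicate 1 or 3 or Dox replicate 1 or 2. B3GAT3, which adds the last linker sugar, fell from 66.8 ± 0.956 to 58.9 ± 3.40 TPM. Of the 4 fitted polymerase genes 3 rose and 1 fell (2 and 1 after quantile normalization). EXT1, which with EXT2 extends the chain, rose from 5.80 ± 0.470 to 10.4 ± 0.362 TPM (log2 fold change 0.75 ± 0.07, SE; limma adjusted p = 9.7e-05). EXT2 rose from 71.6 ± 1.77 to 89.8 ± 0.962 TPM. EXTL2, which can stop a chain, went from 12.9 ± 0.818 to 10.1 ± 1.30 TPM, a call lost without the filter, without Ctrl replicate 2 or without Ctrl replicate 3.

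Sulfation sets which ligands a chain binds. Of 6 fitted sulfotransferase and epimerase genes 5 rose and none fell (4 and 0 under either rescaling). HS6ST1, a transferase of sulfate to carbon 6 of glucosamine, rose from 19.9 ± 1.33 to 37.1 ± 2.79 TPM (limma adjusted p = 4e-05). NDST1, which replaces acetyl by sulfate on glucosamine, rose from 23.6 ± 1.03 to 41.4 ± 1.37 TPM (limma adjusted p = 8.7e-06). None of the 5 listed HS3ST genes, whose products add the rare sulfate of carbon 3, exceeded 0.473 TPM in any library. The sulfatases SULF1 and SULF2, which remove sulfate from chains outside the cell, stayed under 0.0357 TPM. Heparanase (HPSE) was at 3.74 ± 0.395 and 3.80 ± 0.144 TPM and did not pass.

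Donors of sugar and sulfate rose in 8 of 10 fitted cases and none fell (7 after median-ratio rescaling, 5 after quantile normalization). Among those that rose, PAPSS2 passed the filter only through its Dox libraries (0.721 to 0.948 TPM in Ctrl). PAPSS1, which makes the sulfate donor PAPS, rose from 54.8 ± 2.03 to 97.2 ± 2.44 TPM (limma adjusted p = 2.7e-06). UGDH, which makes UDP-glucuronic acid, rose from 43.8 ± 1.44 to 68.4 ± 1.08 TPM. Both donors also feed chondroitin sulfate, the other chain that SDC1 can carry. Of 12 fitted chondroitin and dermatan sulfate enzymes 8 rose and 3 fell, the same counts under either rescaling. The dermatan sulfotransferase CHST14 rose from 34.6 ± 3.39 to 173 ± 8.64 TPM (4.99-fold, limma adjusted p = 2.4e-07), and the chondroitin sulfotransferase CHST3 from 1.59 ± 0.284 to 8.21 ± 0.604 TPM. The polymerizing factor CHPF fell from 40.2 ± 1.85 to 31.9 ± 3.14 TPM. UST was at 4.22 ± 0.10 and 3.34 ± 0.337 TPM, and its call is lost without the filter, with a replicate block and when any library other than Dox replicate 2 is left out. Of 7 fitted genes for lysosomal breakdown 4 rose and 1 fell (1 and 1 after quantile normalization). SGSH was at 7.11 ± 0.294 and 9.52 ± 1.11 TPM, a call lost after quantile normalization. ARSG was at 5.98 ± 0.271 and 4.86 ± 0.0588 TPM, a call lost without Ctrl replicate 3.

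Among 7 fitted genes for other proteoglycan core proteins 4 rose and none fell (3 after quantile normalization). The basement membrane proteoglycan agrin (AGRN) rose from 12.7 ± 0.296 to 27.0 ± 2.44 TPM (limma adjusted p = 1.4e-05). NRP1, a receptor for semaphorins and VEGF that can carry a chain, rose 9.94-fold from 5.56 ± 0.252 to 55.3 ± 3.06 TPM (limma adjusted p = 3.2e-08), which is above the fold of SDC2. CD44 did not exceed 0.0360 TPM in any library. Of 7 fitted partners of the syndecan tail 3 rose and 1 fell (3 and 2 under either rescaling). Both for these partners and for the other core proteins, the 57.1% called was near the 53.7% of all fitted genes. PRKCA, the kinase that binds SDC4, rose from 4.34 ± 0.207 to 7.09 ± 0.225 TPM, and GIPC1, a PDZ protein that binds SDC4, from 82.3 ± 2.25 to 119 ± 2.54 TPM. Syntenin-1 (SDCBP), which links syndecans to vesicle traffic, was at 135 ± 4.83 and 145 ± 4.86 TPM. Its groups did not overlap, but it did not pass; it passed with a replicate block (limma adjusted p = 0.045) and with a filter at a mean of 5 TPM (limma adjusted p = 0.047). Its relative SDCBP2 fell from 13.7 ± 0.297 to 5.27 ± 0.547 TPM (limma adjusted p = 9.7e-06).

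Of 3 fitted genes for shedding and release only the metalloprotease ADAM10 rose, from 62.9 ± 3.66 to 119.5 ± 2.31 TPM (limma adjusted p = 3.4e-06). ADAM17 was at 8.62 ± 0.821 and 9.58 ± 0.722 TPM and did not pass. GPLD1, whose product can release GPI-anchored proteins, did not exceed 0.502 TPM, and NOTUM did not exceed 0.528 TPM. Of 6 fitted ligands of heparan sulfate 2 rose and 3 fell (2 and 4 under either rescaling). Pleiotrophin (PTN), which binds SDC3, rose from 0.158 ± 0.0429 to 6.09 ± 1.22 TPM, and HBEGF from 6.54 ± 0.524 to 29.7 ± 0.815 TPM (limma adjusted p = 2.9e-07). VEGFA fell from 42.1 ± 0.655 to 19.4 ± 2.13 TPM, and lipoprotein lipase (LPL), which docks on heparan sulfate, from 147 ± 5.32 to 80.1 ± 3.09 TPM.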

How the data were processed

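RNA was sequenced from 3 Ctrl and 3 Dox libraries of C4-2 cells carrying the inducible YAP1 transgene, prepared with a stranded mRNA kit per the labels' protocols. Groups and replicate numbers come from the sample titles. The deposited table holds 1 TPM value per gene and library, computed by the authors, and each library sums to the same total. Per the submitters' processing notes, FastQC 0.11.2, STAR 2.5.3a, featureCounts and edgeR were used and the build was hg19. Neither the annotation release nor the strand setting is stated, so gene positions are not printed. Promoter coordinates are those of RefSeq on GRCh38.p14.

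Genes that reached 1 TPM in 3 or more libraries (14833 of 26819) were tested with limma 3.58.1 (R 4.3.3, mean-variance trend, no replicate block) on log2(TPM + 1). Tests were two-sided, p-values were adjusted by Benjamini-Hochberg over all of these genes, and the threshold was 0.05. Fold changes on this scale understate those of low genes. Ratios and folds not marked as log2 compare mean TPM. Whole reads were recovered from the TPM steps with GENCODE 29 exon lengths, or else the smallest length giving whole reads in all libraries (tolerance 0.01 reads), for 100% of tested genes; read numbers cover counting error only, and 3 reads on 1 kb equal 0.335 to 0.401 TPM. Of the 50-base stretches of GENCODE 29 transcripts of each member, none was shared with another gene except 0.286% for GPC5.

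The members and lists were chosen with earlier results of these data known. Genes are named by a rule: all members, up to 2 called genes per list and direction with the largest log2 fold change, and the 3 nearest patterns of the 2 members with the largest change. Other list genes named were chosen after their values were seen. Some genes of the lists are not reported here by name. PXYLP1 and BPNT2 were matched through older symbols. Alternatives were a pseudocount of 0.1, no filter, a filter at a mean of 5 TPM, rescaling by median ratios, quantile normalization, a constant prior variance, a block for replicate number, and each library left out in turn. Summed levels were also computed without mitochondrially encoded genes. limma voom on recovered reads was added after the data were seen.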

Additional observations from a re-analysis of the deposited data

How the results depend on the processing

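SDC1, SDC2, SDC3, SDC4, GPC3 and GPC4 kept their direction and their call under all 14 alternatives. The number of members called was 7 in each of the 13 planned ones and 8 with limma voom on recovered reads. Members called lower were 2 after median-ratio rescaling, 2 after quantile normalization and 2 with limma voom, with GPC6 as the added member each time. GPC1 lost its call under the first and second of these. GPC2, which was never called, ranged from -0.14 to 0.022 in log2 fold change when a library was left out, and turned positive without Ctrl replicate 2. The pathway genes called stayed between 41 (quantile normalization) and 51. Over all fitted genes, quantile normalization gave 3536 higher and 4348 lower, where the deposited scale gave 5319 and 2640, and limma voom gave 4144 lower. The ratio of summed syndecan levels, 2.09 as deposited, was 1.94 after median-ratio rescaling and 2.05 to 2.12 without 1 library. The ratio of summed glypican levels, 1.01 as deposited, was 0.933 after median-ratio rescaling and 0.986 to 1.02 without 1 library, falling below 1 without Ctrl replicate 1 or Dox replicate 3. The cause of these differences was not tested.

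Deviations of same-numbered Ctrl and Dox libraries from their group means had correlations across genes of -0.0085, 0.063 and 0.0035. Those of libraries with unlike numbers ran from -0.040 to 0.038. With 3 libraries per group, these values cannot settle whether the numbers mark a pairing, and the labels name none. With a replicate block 7841 genes, 7 members and 51 pathway genes were called. Among the pathway genes, UST (limma adjusted p = 0.058) and XYLT2 (0.0501) lost their call under the block, and SDCBP (0.045) and SLC35B3 (0.048) gained one. The values of GPC2, GPC5 and GPC6 rest on few reads, which limits their precision.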
